A study of Mus musculus with 20 samples.

Results

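Fibroblasts of mouse embryos, cells of connective tissue kept in culture, were compared after 48 h and after 24 h of actinonin. The comparison takes every sample titled for the 48 h treatment (n = 4) against every sample titled for the 24 h treatment (n = 4), which is 8 of the 20 samples in the series. Cells of a Balb/c background grew in medium that held added uridine. The 48 h and 24 h groups both received actinonin at 150 µM, and the other groups received the same dose for 6 h or 72 h or the carrier alone. A sample was total RNA pooled from 4 plates, amplified from an oligo-dT primer and labelled with Cy3 or Cy5, and it was read in 1 channel of a 2-colour Agilent array. The labels call the 4 samples of a group independent without saying whether they came from separate embryos. A p-value therefore reflects only how much samples vary within groups, which may be technical. This spread was estimated over all 20 samples, so scatter in the carrier, 6 h and 72 h groups enters it too.

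Actinonin is a hydroxamate inhibitor of peptide deformylase, which strips the formyl group off the first methionine of newly made mitochondrial proteins. Cells whose mitochondria fail to make or assemble proteins raise a programme called the integrated stress response, in which the transcription factor ATF4 drives genes of amino acid supply. Over longer stress, fibroblasts also change how fast they divide, how much matrix they secrete and how they make lipids. The step from 24 h to 48 h describes how genes of these programmes differed after the first day of exposure. The carrier samples are titled 0 h, and none is titled 24 h or 48 h. A change over this step can therefore not be told apart from an effect of time in culture.

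All 8 samples lay on slide 2, and no 48 h sample shared an array with a 24 h sample. The 48 h arrays were in slide columns 1 and 4, and the 24 h arrays, which also carried the 72 h samples, were in columns 2 and 3. A change between 48 h and 24 h can therefore not be told apart from an effect of the slide column. The 48 h samples Cy3 replicate 1 and Cy5 replicate 2 shared arrays with carrier samples, and the remaining ones with 6 h samples. Between these pairs of the 48 h group, limma called 0 genes, and 1005 of 24250 had an unadjusted p under 0.05. With 2 samples against 2, small differences would be missed. The pair with carrier samples lay in slide row 2 and the other in row 1, so array partner and row cannot be told apart. The array of the 48 h sample Cy5 replicate 2 stood apart, with 70.5% of its spots well above background in that channel, against 53.9% to 57.6% in the other 48 h samples and 55.7% to 58.7% in the 24 h samples. The 10 E1A spike-in probes measure RNA added in equal amount to monitor labelling. After normalization they differed by a median log2 of 0.04 (range -0.03 to 0.09) between 48 h and 24 h. With background correction alone, before any normalization within or between arrays, the median was -0.0993. Of 15 fibroblast markers, 14 were well above background in all 4 samples of both groups and Lum in none, with Col1a2 at a log2 intensity of 17.18 at 48 h and 17.69 at 24 h. The number of arrays limits the precision.

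Between 24 h and 48 h the transcriptome moved by small amounts in many genes. Of 24250 genes and transcripts tested, 2941 (12.1%) passed an adjusted p under 0.05, which is what "called", "rose" and "fell" mean here. At 48 h 1399 (5.77%) were higher and 1542 (6.36%) were lower. The median size of a called change was 0.26 on the log2 scale, and 4 called genes or transcripts changed at least 2-fold, 3 upward (0.0124%) and 1 downward (0.00412%). Among the 14242 genes with a symbol, 888 (6.24%) rose and 1217 (8.55%) fell, and these shares are the background for the gene lists below. The values of the 4 samples of 48 h and the 4 of 24 h did not overlap for 22% of all tested. The step before it, 24 h against 6 h, had 7963 calls (32.8%), and the step after it, 72 h against 48 h, had 5624 (23.2%). These steps share samples, so their counts stand side by side only.

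**Figure D1:**
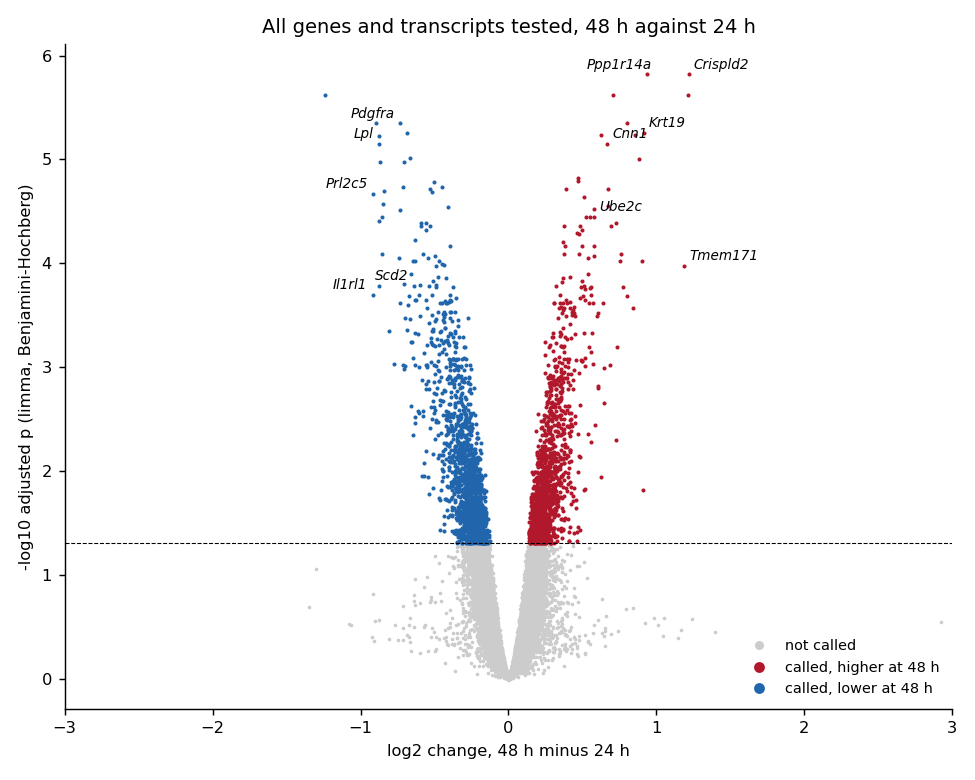
Each point is 1 of the 24250 genes and transcripts, with the log2 change of 48 h minus 24 h on the horizontal axis and -log10 of the adjusted p (limma) on the vertical axis; the dashed line is the threshold. Of the 2941 points above the line, 1399 lie on the 48 h side and 1542 on the 24 h side, and all but 4 of them lie within 1 log2 unit of no change.

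The 12 largest rises and 12 largest falls described next were picked among called genes whose groups did not overlap. The lack of overlap in them is therefore part of the choice and not a separate result. Among genes with a symbol, Crispld2 rose the most. It encodes a secreted protein of the cysteine-rich secretory family. Values below are normalized log2 intensities with the fitted dye effect removed, in the order Cy3 replicate 1, Cy3 replicate 2, Cy5 replicate 1 and Cy5 replicate 2. Crispld2 read 10.08, 9.86, 10.12 and 9.87 in the 48 h samples, against 8.81, 8.72, 8.81 and 8.73 in the 24 h samples. The groups were far apart relative to their spread: the difference was 2.33-fold (log2 change 1.22 ± 0.09, where ± gives the standard error and each group has n = 4; limma adjusted p = 1.51e-06). A second probe of the gene gave 0.93. Tmem171, which encodes a membrane protein, read 9.97, 9.65, 9.65 and 9.33 at 48 h and 8.49, 8.43, 8.53 and 8.40 at 24 h, a log2 change of 1.19 ± 0.15 (adjusted p = 0.000106). Its 48 h values were more spread than its 24 h values, and the lowest came from the array that stood apart.

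The next largest rises follow. Ppp1r14a, an inhibitor of myosin phosphatase that sustains smooth muscle contraction, read 9.08, 9.21, 9.12 and 9.19 at 48 h and 8.21, 8.29, 8.21 and 8.15 at 24 h, a log2 change of 0.94 ± 0.07. Tgm2, the transglutaminase that cross-links matrix proteins, read 13.87, 13.84, 13.92 and 13.69 at 48 h and 12.95, 12.95, 12.98 and 12.91 at 24 h (0.88 ± 0.09). Both genes were higher in all 4 samples of 48 h than in any of 24 h, as their choice required. Krt19, a keratin of simple epithelia, rose by 0.91 ± 0.08, and Cobl, which encodes an actin nucleator, by 0.84 ± 0.12. A second probe of Cobl gave -0.02, so its probes disagree.

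Pdgfb, a chain of platelet-derived growth factor, read 10.68, 10.57, 10.64 and 10.71 at 48 h and 9.87, 9.87, 9.84 and 9.92 at 24 h (0.78 ± 0.10); a second probe gave 0.22. Inhbb, the beta B subunit of activins and inhibins, read 11.94, 11.84, 11.96 and 11.68 at 48 h and 11.11, 11.09, 11.13 and 11.05 at 24 h (0.76 ± 0.09). Edn1, the precursor of the vasoconstrictor endothelin, rose by 0.75 ± 0.09. In the same range was Siglecg, a sialic acid receptor best known from B cells, at 0.80 ± 0.11. Gjb2, which encodes the gap junction protein connexin 26, rose by 0.91 ± 0.23 (adjusted p = 0.0154), and its call was lost when only one pair of the 48 h samples was used: adjusted p = 0.0514 with the samples that shared arrays with 6 h and 0.0987 with those that shared arrays with the carrier.

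The 12 largest falls were more uniform in size, with log2 changes between -0.92 and -0.80. Il1rl1, the receptor of interleukin 33, read 11.29, 11.12, 11.07 and 11.05 at 48 h and 12, 11.99, 12.12 and 12.11 at 24 h, 1.89-fold lower (log2 change -0.92 ± 0.12; adjusted p = 0.000201). Other probes of Il1rl1 gave -0.38 and -0.70. Prl2c5, a proliferin of the prolactin family, read 8.65, 8.50, 8.55 and 8.48 at 48 h and 9.41, 9.44, 9.53 and 9.46 at 24 h (-0.91 ± 0.10). The proliferin genes are near-identical copies, so which of them this probe measured is uncertain. Both genes had no overlap between the groups, as their choice required. By 72 h Il1rl1 fell again, by 0.69 ± 0.12, and so did Prl2c5, by 0.80 ± 0.10.

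Lipoprotein lipase and Wnt regulators fell as well. Lpl, the enzyme that frees fatty acids from lipoproteins, read 10.48, 10.38, 10.39 and 10.45 at 48 h and 11.33, 11.27, 11.19 and 11.41 at 24 h (-0.88 ± 0.08). Dkk2, a secreted modulator of Wnt receptors, read 8.22, 8.13, 8.13 and 8.04 at 48 h and 9.01, 8.86, 9.09 and 9.06 at 24 h (-0.87 ± 0.08). Sfrp2, a secreted Wnt-binding protein, read 11.88, 11.77, 12.09 and 11.85 at 48 h and 12.99, 12.50, 12.66 and 12.93 at 24 h (-0.87 ± 0.12). The 24 h values of Sfrp2 were more spread than those of Lpl and Dkk2, though without overlap, as its choice required. Dlk1, a transmembrane regulator of fat cell differentiation, read 14.57, 14.35, 14.74 and 14.39 at 48 h and 15.46, 15.29, 15.21 and 15.46 at 24 h (-0.84 ± 0.09).

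The remaining large falls were Nrcam, a neuronal adhesion molecule (-0.87 ± 0.10), Slc5a7, a choline transporter (-0.87 ± 0.09), Try5, a trypsin of a family with near-identical copies (-0.86 ± 0.10), and Sparcl1, a matricellular protein (-0.86 ± 0.10). Ptgfr, the receptor of prostaglandin F2 alpha, fell by 0.85 ± 0.09, and Rgs4, a brake on G protein signalling, by 0.80 ± 0.12. A second probe of Rgs4 gave -0.27. In each of these 6 genes every 48 h sample was below every 24 h sample, as their choice required.

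**Figure D2:**
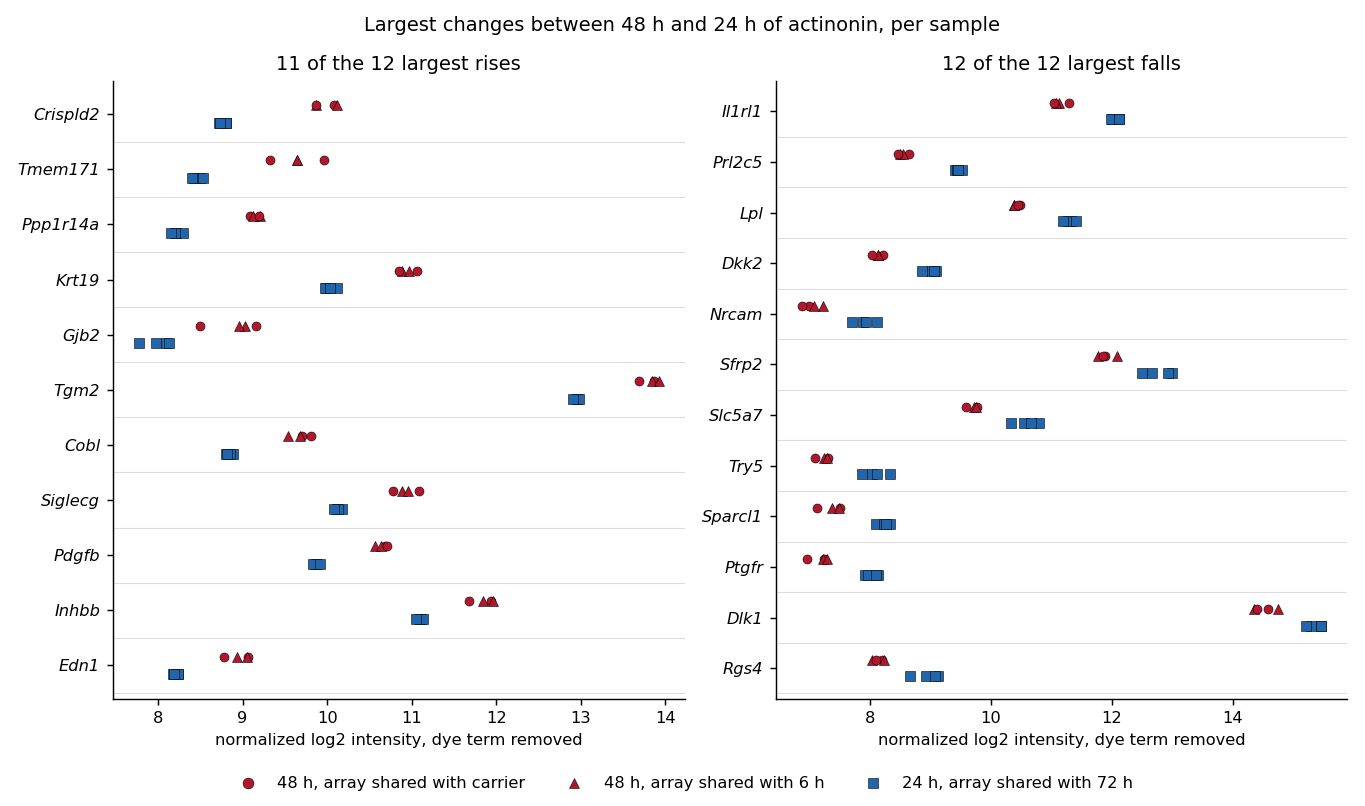
Normalized log2 intensity (horizontal axis) of 11 of the 12 largest rises and of the 12 largest falls in each of the 4 samples of 48 h (red, circles where the array was shared with the carrier, triangles where it was shared with 6 h) and the 4 of 24 h (blue squares). The groups of Crispld2, Tgm2, Lpl and Dkk2 lie far apart relative to their spread, while Gjb2 at 48 h spans 8.49 to 9.16.

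Of the 4 features that changed at least 2-fold, Crispld2 and Tmem171 carry a symbol. The other ones, chosen after their values were seen, are probes for unnamed transcripts of opposite strands over one region, chr5:35975265-35982561 in the array's mm9 annotation. The forward-strand probe read 13.72, 13.77, 13.83 and 13.68 at 48 h and 12.48, 12.54, 12.48 and 12.63 at 24 h, 2.32-fold higher. The reverse-strand probe read 12.52, 11.92, 11.99 and 12.27 at 48 h and 13.43, 13.34, 13.39 and 13.51 at 24 h, 2.36-fold lower. Over the whole exposure the forward probe averaged 11.27 in the carrier and 13.41, 12.53, 13.75 and 12.96 at 6, 24, 48 and 72 h. The reverse probe averaged 11.71 in the carrier and 10.55, 13.42, 12.18 and 13.10 at the same times. The probes thus moved in opposite directions at every step from 6 h on.

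A few genes had signal at one time only. S100a7a, an S100 calcium-binding protein of skin, was well above background in 4 of 4 samples of 48 h and 0 of 4 of 24 h, with means of 6.84 and 6.53, at least 1.23-fold higher (adjusted p = 0.0174). The serine protease gene Htra4 was at least 1.29-fold lower, with means of 6.41 at 48 h and 6.81 at 24 h. The angiotensin receptor gene Agtr2 was at least 1.28-fold lower (6.49 at 48 h, 6.86 at 24 h), and so was the interferon-inducible Ifitm1 (6.48 at 48 h, 6.83 at 24 h). These 3 were well above background in 0 of 4 samples of 48 h and 4 of 4 of 24 h. For such genes the fold is a lower bound, taken against the lowest signal well above background.

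Genes of mitosis formed the list with the highest share of calls in one direction. Of 38 genes of G2 and mitosis tested, 29 rose and 0 fell, against 6.24% and 8.55% of all named genes, with a median log2 change of 0.30 against -0.02. Single changes ran from -0.04 to 0.58. Ube2c, the ubiquitin-conjugating enzyme that works with the anaphase-promoting complex, read 12.99, 13.11, 13.06 and 13.02 at 48 h and 12.44, 12.50, 12.43 and 12.49 at 24 h, 1.49-fold higher (0.58 ± 0.06; adjusted p = 3.57e-05). Kif23, the kinesin of the central spindle, read 11.36, 11.31, 11.35 and 11.19 at 48 h and 10.85, 10.80, 10.82 and 10.86 at 24 h (0.47 ± 0.05). Cenpa, the histone H3 variant that marks centromeres, rose by 0.39 ± 0.04, the spindle checkpoint kinase gene Bub1 by 0.37 ± 0.04 and the cyclin gene Ccnb1 by 0.35 ± 0.06.

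At 48 h the list still lay below the carrier. Against the carrier, the list's median log2 difference was -0.19 at 6 h, -1.05 at 24 h, -0.68 at 48 h and -1.01 at 72 h. Cenpa averaged 13.16 in the carrier and 12.82, 11.89, 12.28 and 11.94 at 6, 24, 48 and 72 h. In bulk RNA, fewer cells in mitosis and less mitotic RNA per cell cannot be told apart. With the array that stood apart left out, 28 of the 38 genes rose (median 0.29).

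The promoters of 2 of these genes are shown because genes of this list are known to be controlled through CCAAT boxes, bound by NF-Y, and through the cell cycle homology region, with the core TTTGAA, bound by the DREAM and MuvB complexes. Each runs from 250 bases before to 50 bases after the transcription start in RefSeq's GRCm38.p6 and is written 5′ to 3′ on the gene's strand. Capitals mark matches to CCAAT or TTTGAA on either strand, so that a match on the other strand reads ATTGG. Kif23 lies on the minus strand at chr9:61946750-61947049 and Cenpa on the plus strand at chr5:30666636-30666935.
Kif23: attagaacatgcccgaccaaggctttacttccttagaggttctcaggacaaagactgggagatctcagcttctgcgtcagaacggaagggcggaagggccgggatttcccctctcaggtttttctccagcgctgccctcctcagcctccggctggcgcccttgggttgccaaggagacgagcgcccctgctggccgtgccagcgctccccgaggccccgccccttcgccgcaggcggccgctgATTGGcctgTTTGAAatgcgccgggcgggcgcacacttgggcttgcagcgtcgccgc
Cenpa: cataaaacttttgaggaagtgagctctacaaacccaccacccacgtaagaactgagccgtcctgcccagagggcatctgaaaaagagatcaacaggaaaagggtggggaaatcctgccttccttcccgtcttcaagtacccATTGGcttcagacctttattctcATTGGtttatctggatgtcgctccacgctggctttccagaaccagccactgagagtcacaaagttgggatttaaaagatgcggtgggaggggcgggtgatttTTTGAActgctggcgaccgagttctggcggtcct
Of the 38 tested genes, 32 had a promoter in the RefSeq table. A CCAAT match occurred in 24 of these and a TTTGAA match in 23. Among the 24 with a promoter that rose, 19 had a CCAAT match and 16 a TTTGAA match. Of all 27025 promoters of the table, 37.9% had a CCAAT match and 18.1% a TTTGAA match. The matches do not overlap each other in the sequences shown, and a match is a run of letters, not a bound site.

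Of 47 genes of G1/S and DNA replication, 10 fell, 2 rose and the other ones did not pass (median -0.07); without the array that stood apart, 5 fell and 0 rose. Cdc6, which loads the replicative helicase, read 9.78, 9.74, 9.70 and 9.72 at 48 h and 10.13, 10.06, 10.12 and 10.05 at 24 h (-0.36 ± 0.06). The flap endonuclease gene Fen1 fell by 0.27 ± 0.06, and the helicase subunits Mcm2 and Mcm3 by 0.20 ± 0.05 and 0.16 ± 0.04. The cyclin genes Ccnd2 (0.18 ± 0.05) and Ccnd3 (0.19 ± 0.06) rose. With only one pair of the 48 h samples, 1 or 2 of the list fell, so most of these small changes were called only with all 4 samples.

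Of 18 replication-dependent histone genes, 9 rose and 1 fell (median 0.20). H2bc4 rose by 0.64 ± 0.12, H2ac4 by 0.45 ± 0.09, H1f2 by 0.43 ± 0.08 and H4c4 by 0.40 ± 0.07, while H3c1 fell by 0.28 ± 0.07. Histone genes of one type are near-identical copies, and their messages normally lack the poly(A) tail that the labelling primer binds, so single histone values are uncertain. Of 8 genes of the cyclin-dependent kinase inhibitor list, Cdkn3 rose by 0.54 ± 0.07 and Cdkn2d by 0.36 ± 0.08, and Cdkn2a fell by 0.23 ± 0.07. Cdkn3 encodes a phosphatase of cyclin-dependent kinases that is itself expressed in mitosis. Cdkn1a, the p53-induced inhibitor p21, averaged 13.90 at 48 h and 13.99 at 24 h with overlapping groups (adjusted p = 0.54). Of 27 p53 targets, 2 rose and 3 fell (median -0.09), with Pmaip1, a BH3-only activator of cell death, at 0.35 ± 0.06 and the membrane protein gene Perp at 0.42 ± 0.08. The DNA damage-binding gene Ddb2 fell by 0.23 ± 0.05 and Pidd1, which encodes a p53-induced death domain protein, by 0.24 ± 0.06.

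**Figure D3:**
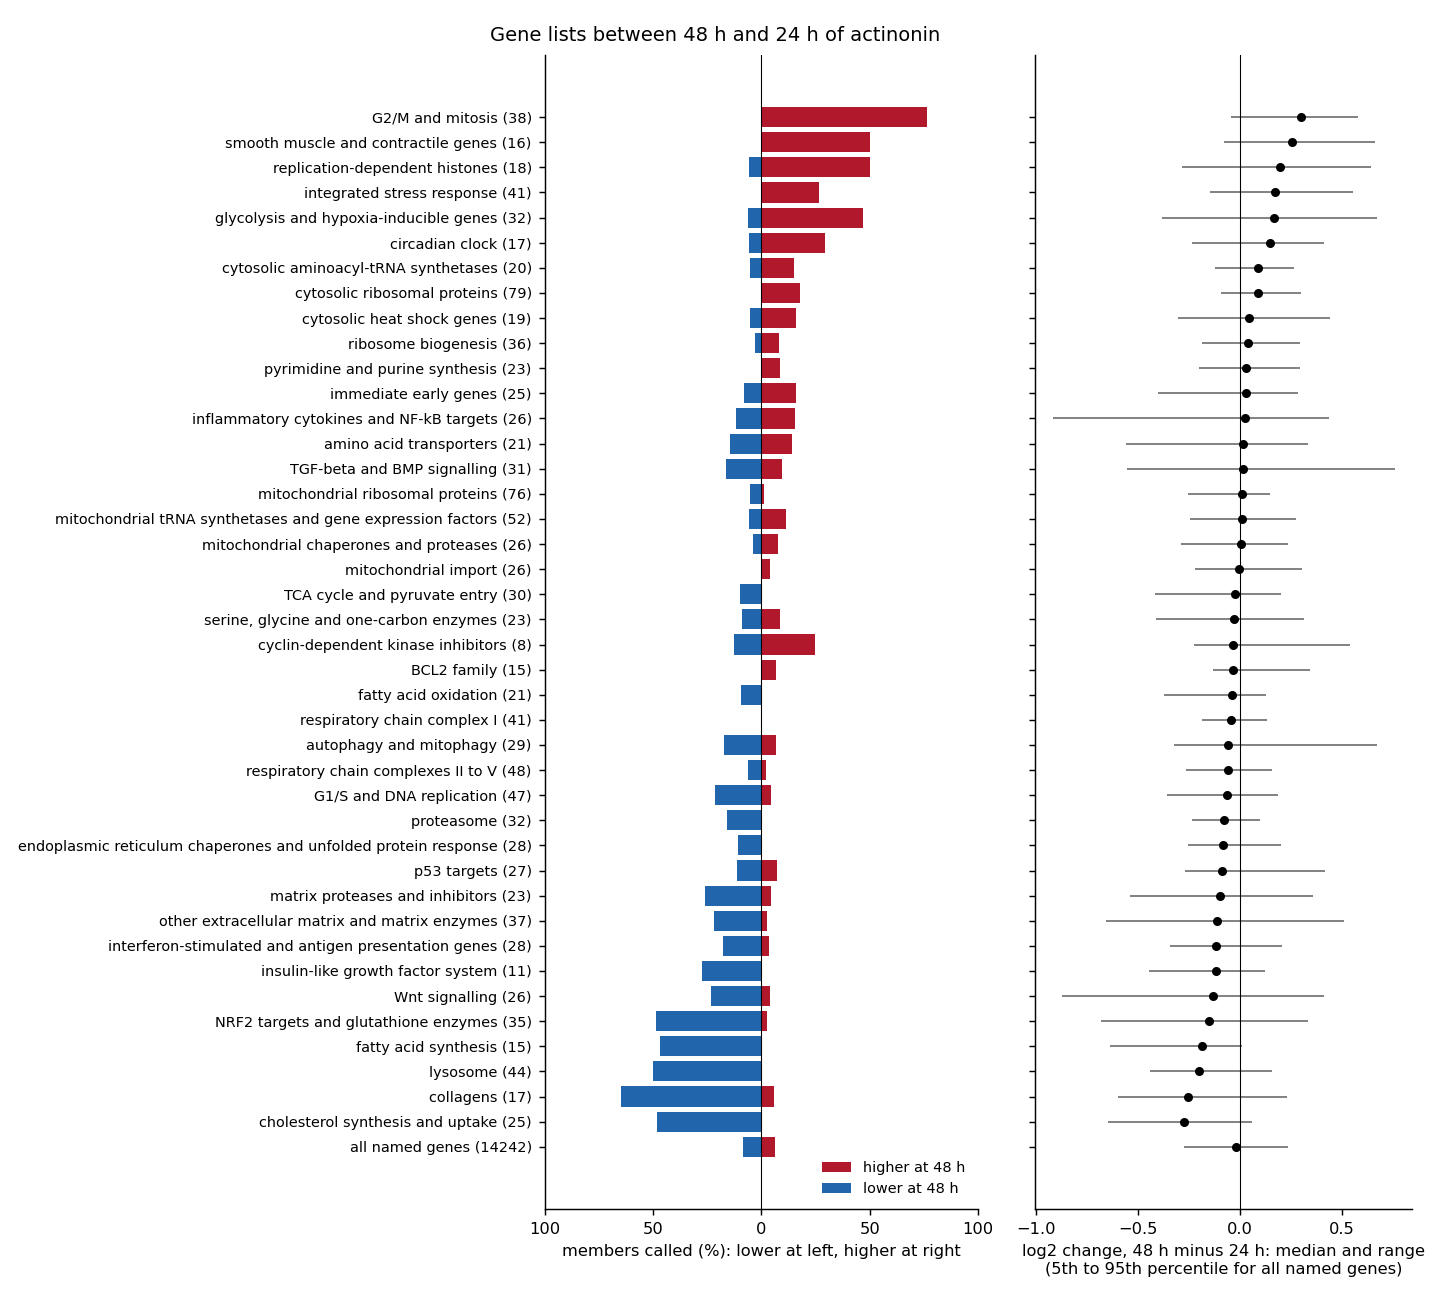
Left, the share of tested members of each of 41 gene lists that were called higher (red, right of zero) or lower (blue, left of zero) at 48 h than at 24 h; right, the median log2 change (dot) and the range of the members (line). The number of members tested is in brackets, and the bottom row gives all 14242 named genes. Mitotic genes stand at the top with 29 of 38 higher, and cholesterol synthesis is at the bottom with 12 of 25 lower.

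Contractile genes that passed the test rose, and most matrix genes that passed fell. Of 16 smooth muscle and contractile genes, 8 rose and 0 fell (median 0.25). Cnn1, the actin-binding protein calponin, read 15.79, 15.73, 15.82 and 15.75 at 48 h and 15.16, 15.07, 15.15 and 15.05 at 24 h, 1.58-fold higher (0.66 ± 0.06; adjusted p = 7.03e-06). The smooth muscle gamma actin gene Actg2 read 15.51, 15.48, 15.51 and 15.43 at 48 h and 14.92, 14.88, 15.01 and 14.91 at 24 h (0.55 ± 0.06). Tagln (transgelin) rose by 0.50 ± 0.07, the myosin light chain gene Myl9 by 0.34 ± 0.05 and the smooth muscle alpha actin gene Acta2 by 0.31 ± 0.05. Against the carrier, the list's median difference was -0.06, -0.30, 0.00 and -0.08 at 6, 24, 48 and 72 h, and Cnn1 itself was 0.30 above the carrier at 48 h. The striated muscle actin gene Acta1 rose by 0.50 ± 0.06 as well.

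Of 17 collagen genes, 11 fell and 1 rose (median -0.26). Col1a1, a chain of the main fibrillar collagen, read 15.92, 15.83, 16.21 and 15.97 at 48 h and 16.67, 16.51, 16.54 and 16.59 at 24 h, 1.51-fold lower (-0.60 ± 0.09; adjusted p = 0.000322). Col6a1, of the microfibrillar collagen, fell by 0.39 ± 0.07, Col8a2 by 0.33 ± 0.06 and Col18a1, whose fragment is endostatin, by 0.25 ± 0.05. The one collagen that rose was Col7a1, of anchoring fibrils (0.23 ± 0.07). Of 37 other matrix genes, 8 fell and 1 rose (median -0.11). The small proteoglycan gene Ogn read 12.40, 12.18, 12.39 and 12.27 at 48 h and 13.16, 12.76, 12.88 and 13.08 at 24 h (-0.66 ± 0.10). The fibrillin gene Fbn1 read 12.48, 12.37, 12.43 and 12.40 at 48 h and 12.91, 12.91, 12.91 and 12.96 at 24 h (-0.50 ± 0.05), and the groups did not overlap. Postn (periostin) fell by 0.56 ± 0.09 and Thbs2 (thrombospondin 2) by 0.44 ± 0.06. The matrix gene that rose was P4ha1, a prolyl hydroxylase subunit that is also hypoxia-inducible (0.32 ± 0.07).

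Genes of matrix proteases and of their inhibitors were mixed. Of 23 tested, 6 fell and 1 rose (median -0.10, which was 0.01 when single channels were scaled to their 75th percentile). The gelatinase gene Mmp2 fell by 0.47 ± 0.10, Adamts1 by 0.54 ± 0.13 and Adamts9 by 0.46 ± 0.10, and Adam12 rose by 0.29 ± 0.06. The other probes of Adam12 gave -0.02 and 0.02, so its probes disagree. The 4 values of Adamts1 were 11.71, 11.52, 11.89 and 11.66 at 48 h and 12.45, 11.86, 12.16 and 12.48 at 24 h, so that its groups overlapped.

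Of 15 fibroblast markers, 6 fell and 0 rose (median -0.26). Pdgfra, a receptor of platelet-derived growth factor, read 10.90, 10.69, 10.71 and 10.63 at 48 h and 11.50, 11.37, 11.40 and 11.58 at 24 h, 1.66-fold lower (-0.73 ± 0.06; adjusted p = 4.51e-06). Pdgfrb read 13.19, 13.09, 13.28 and 13.14 at 48 h and 13.83, 13.72, 13.68 and 13.80 at 24 h (-0.58 ± 0.07), Col1a2 fell by 0.51 ± 0.11, and the cell surface marker Thy1 was at 0.13 ± 0.07 (adjusted p = 0.21). The summed intensity of the 15 markers was 498800 to 636200 in the 48 h samples and 677700 to 746700 in the 24 h samples.

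Markers of other cell types moved too. Of 10 epithelial markers 5 were tested, among which Krt19 and Krt7 rose. The sum of the 5 was 2374 to 2637 at 48 h and 1459 to 1594 at 24 h. Most of it was Krt19, at a mean log2 intensity of 10.94 at 48 h and 10.03 at 24 h. Epcam, Cdh1, Krt8 and Krt18 did not pass the filter on signal. Krt7 was well above background in 2 of 4 samples of 48 h and 0 of 4 of 24 h, at least 1.30-fold higher. Of 7 smooth muscle and pericyte markers 5 were tested and 2 rose, Acta2 and Cnn1, with a sum of 259000 to 286800 at 48 h and 208400 to 218900 at 24 h, and Myh11 and Rgs5 did not pass the filter. Of 11 macrophage and leukocyte markers 7 were tested. Itgam rose by 0.22 ± 0.06 (other probes gave 0.01 and 0.18), while Cd74 fell by 0.67 ± 0.10 and Cd14 by 0.25 ± 0.08. The sum of the 7 was 36640 to 42460 at 48 h and 34860 to 36080 at 24 h, and Ptprc, Cd68, Mrc1 and Tyrobp did not pass. Most of this sum was Itgam, at a mean log2 intensity of 15.21 at 48 h, with Csf1r next at 10.33. The median log2 change of the list was -0.08. Of 7 adipocyte markers 3 were tested and Lpl and Fabp4 fell, with a sum of 3340 to 3548 at 48 h and 4418 to 4778 at 24 h, and Adipoq, Plin1, Cidec and Retn did not pass. Endothelial markers (4 of 9 tested) had no call, with a sum of 6393 to 6777 at 48 h and 5387 to 6206 at 24 h. Most of that sum was Kdr, at a mean log2 intensity of 12.58 at 48 h and 12.36 at 24 h. Of 7 neural markers tested Tubb3 rose, of 3 striated muscle markers Acta1 rose, and of 8 cartilage and bone markers Sox9 fell by 0.32. The part of these markers in the changes above was not tested.

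Every called gene of lipid synthesis was lower at 48 h. Of 25 genes of cholesterol synthesis and uptake, the targets of the transcription factor SREBP2, 12 fell and 0 rose (median -0.27). Insig1, which retains the SREBP complex in the endoplasmic reticulum, read 7.84, 7.82, 7.82 and 7.88 at 48 h and 8.55, 8.38, 8.34 and 8.69 at 24 h, 1.57-fold lower (-0.65 ± 0.08; adjusted p = 9.42e-05). The sterol oxidase gene Msmo1 read 13.59, 13.38, 13.60 and 13.33 at 48 h and 14.07, 13.89, 13.88 and 14.07 at 24 h (-0.50 ± 0.09), and the squalene epoxidase gene Sqle fell by 0.44 ± 0.08. Hmgcs1, which makes the precursor of mevalonate, read 13.36, 13.46, 13.62 and 13.45 at 48 h and 14.09, 13.86, 13.85 and 13.96 at 24 h. Its change of -0.47 ± 0.17 did not pass (limma adjusted p = 0.0766), although the groups did not overlap. Its SD was 0.108 at 48 h and 0.11 at 24 h, but 0.449 in the carrier and 0.374 at 6 h, which enter the standard error. Against the carrier, the list's median difference was -0.39, -0.91, -1.25 and -0.996 at 6, 24, 48 and 72 h.

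Of 15 genes of fatty acid synthesis, 7 fell and 0 rose (median -0.19). Scd2, a desaturase that makes oleate, read 14.21, 14.02, 14.43 and 14.16 at 48 h and 14.88, 14.76, 14.78 and 14.96 at 24 h (-0.64 ± 0.08), and its relative Scd1 fell by 0.46 ± 0.06. The elongase gene Elovl6 fell by 0.28 ± 0.07 and the desaturase gene Fads1 by 0.26 ± 0.06. Each 48 h sample of Scd2 was below each 24 h sample. Of 21 genes of fatty acid oxidation 2 fell, Hadh by 0.37 ± 0.08 and Acadm by 0.22 ± 0.05.

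**Figure D4:**
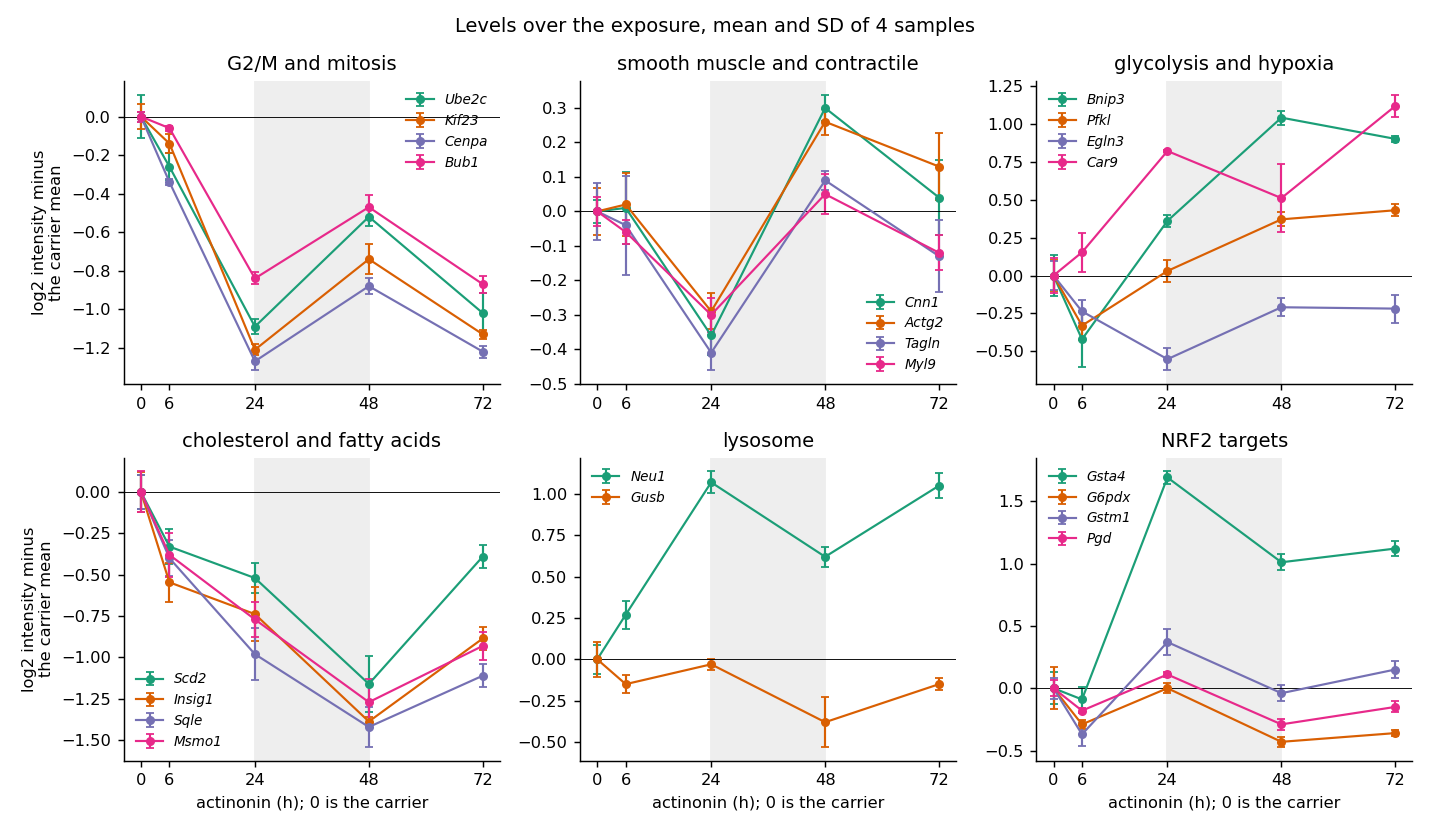
Mean log2 intensity minus the carrier mean (vertical axis) over the hours of actinonin (horizontal axis; 0 is the carrier), with the SD of 4 samples as error bars, for 2 lysosomal genes and 4 genes of each of 5 other lists. Grey marks the interval from 24 h to 48 h, in which mitotic and contractile genes rose, lipid, lysosomal and NRF2 target genes fell, and Car9 fell while the other 3 hypoxia and glycolysis genes rose.

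Every called lysosomal gene was lower at 48 h. Of 44 tested, 22 fell and 0 rose (median -0.20; without the array that stood apart, 15 fell and the median was -0.17). Neu1, a sialidase, read 12.02, 11.94, 12.07 and 12.07 at 48 h and 12.46, 12.56, 12.41 and 12.44 at 24 h, 1.36-fold lower (-0.44 ± 0.06; adjusted p = 0.000307). Gusb, the beta-glucuronidase gene, read 12, 11.74, 11.98 and 11.72 at 48 h and 12.22, 12.16, 12.21 and 12.23 at 24 h (-0.34 ± 0.07). Against the carrier, the median of the list was 0.32 at 24 h and 0.13 at 48 h. Without scaling between arrays, 1 of the 44 fell, with a median of -0.23. Lysosomal genes are known to be controlled by TFEB through a palindrome with the core TCACGTGA, which occurred in 6 of the 34 promoters available for the list, in 2 of the 17 of genes that fell, and in 1.01% of all promoters.

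Of 29 autophagy genes 5 fell and 2 rose (median -0.06). Bnip3, a mitophagy receptor induced by hypoxia, read 13.15, 13.26, 13.22 and 13.21 at 48 h and 12.54, 12.54, 12.58 and 12.48 at 24 h, 1.60-fold higher (0.67 ± 0.07; adjusted p = 2.81e-05). Atg3, the conjugating enzyme of the LC3 family, rose by 0.40 ± 0.06. Gabarapl1, an LC3 relative, fell by 0.32 ± 0.06 and Atg7, the activating enzyme of that pathway, by 0.21 ± 0.05, where a second probe gave -0.04.

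Targets of NRF2, the transcription factor of the antioxidant response, were mostly lower where called: of 35 tested, 17 fell and 1 rose (median -0.15). Gsta4, a glutathione transferase that detoxifies lipid aldehydes, read 11.18, 11.28, 11.14 and 11.25 at 48 h and 11.90, 11.95, 11.83 and 11.90 at 24 h, 1.61-fold lower (-0.68 ± 0.06; adjusted p = 5.53e-06). The pentose phosphate enzyme genes G6pdx and Pgd, which supply NADPH, fell by 0.43 ± 0.07 and 0.41 ± 0.04, and the glutathione transferase gene Gstm1 by 0.41 ± 0.06. The one member that rose was the cystine transporter gene Slc7a11 (0.33 ± 0.09), which is also an ATF4 target. The promoters of the 2 NADPH enzyme genes are shown because NRF2 binds antioxidant response elements, with the core TGACNNNGC, whose matches on either strand are in capitals. Pgd lies on the minus strand at chr4:149166656-149166955 and G6pdx on the minus strand at chrX:74428831-74429130, in the same build and window as above.
Pgd: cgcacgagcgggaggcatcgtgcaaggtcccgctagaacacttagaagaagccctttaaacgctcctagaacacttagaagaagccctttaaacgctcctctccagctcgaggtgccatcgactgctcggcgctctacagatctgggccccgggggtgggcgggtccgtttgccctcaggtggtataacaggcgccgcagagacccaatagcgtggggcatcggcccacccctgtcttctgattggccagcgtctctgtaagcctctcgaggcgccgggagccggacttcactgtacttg
G6pdx: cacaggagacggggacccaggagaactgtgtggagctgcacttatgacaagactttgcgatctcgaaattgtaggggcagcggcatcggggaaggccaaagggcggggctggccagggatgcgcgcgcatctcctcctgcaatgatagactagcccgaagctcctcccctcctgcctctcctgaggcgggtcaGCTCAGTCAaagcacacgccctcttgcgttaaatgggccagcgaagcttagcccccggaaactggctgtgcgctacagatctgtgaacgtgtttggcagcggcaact
G6pdx had 1 match and Pgd none in this window. Over the list, 10 of 30 promoters held a match, 6 of the 14 of genes that fell, and 12.5% of all promoters did.

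Called targets of the integrated stress response were all higher at 48 h. Of 41 tested, 11 rose and 0 fell (median 0.17). Cth, which makes cysteine in transsulfuration, read 12.96, 12.98, 12.90 and 12.87 at 48 h and 12.37, 12.41, 12.41 and 12.29 at 24 h, 1.47-fold higher (0.56 ± 0.12; adjusted p = 0.00521). The alanine transaminase gene Gpt2 read 12.72, 12.73, 12.73 and 12.74 at 48 h and 12.21, 12.29, 12.23 and 12.29 at 24 h (0.47 ± 0.08). The hormone gene Gdf15 rose by 0.38 ± 0.09 and the transcription factor gene Cebpg by 0.24 ± 0.05. Gadd45a, a growth arrest gene, rose by 0.54 ± 0.09. Against the carrier, the list's median was 0.96, 0.76, 0.94 and 0.87 at 6, 24, 48 and 72 h.

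Atf4, the central factor of this response, was not called. It read 17.53, 17.07, 17.30 and 17.36 at 48 h and 17.13, 17.29, 17.16 and 17.13 at 24 h, with overlapping groups (0.14 ± 0.09; adjusted p = 0.38). Ddit3, which encodes CHOP, was at 0.17 ± 0.09 (adjusted p = 0.26), Trib3 at 0.29 ± 0.13 (0.18), Chac1 at 0.23 ± 0.08 (0.058), Asns at 0.23 ± 0.09 (0.11) and Fgf21 at 0.24 ± 0.14 (0.30). Of 20 cytosolic aminoacyl-tRNA synthetases 3 rose, Farsb, Rars and Mars1, and Qars fell by 0.12 ± 0.04 (median 0.09). Of 23 serine and one-carbon enzymes 2 rose, the serine enzyme gene Psph by 0.29 ± 0.09 and the mitochondrial folate enzyme gene Mthfd2 by 0.32 ± 0.08, and 2 fell, among them the methionine synthase reductase gene Mtrr by 0.28 ± 0.06.

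Called glycolytic and hypoxia-inducible genes were mostly higher. Of 32 tested, 15 rose and 2 fell (median 0.17). Beside Bnip3, the phosphofructokinase gene Pfkl read 11.69, 11.72, 11.77 and 11.66 at 48 h and 11.42, 11.30, 11.32 and 11.45 at 24 h (0.34 ± 0.06), and the prolyl hydroxylase gene Egln3 rose by 0.34 ± 0.06. Adm (adrenomedullin) fell by 0.38 ± 0.08 and the carbonic anhydrase gene Car9 by 0.31 ± 0.09, although both are hypoxia-inducible. Car9 read 7.32, 7.55, 7.59 and 7.11 at 48 h and 7.71, 7.71, 7.70 and 7.69 at 24 h. With the 48 h samples that shared arrays with the carrier alone, 5 members rose, against 9 with those that shared arrays with 6 h.

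Among nuclear genes of the mitochondrion, of 41 complex I genes 0 rose and 0 fell (median -0.04, range -0.19 to 0.13); their smallest adjusted p values belonged to Ndufa4 (-0.19 ± 0.06; 0.0586) and Ndufa5 (-0.15 ± 0.05; 0.0736). Of 48 genes of complexes II to V, 1 rose, Surf1, an assembly factor of cytochrome oxidase (0.15 ± 0.04), and 3 fell, among them Uqcrh of complex III (-0.26 ± 0.07) and Cox7b of complex IV (-0.23 ± 0.05). Of 76 mitochondrial ribosomal protein genes 1 rose and 4 fell (median 0.01), with Mrps6 at -0.25 ± 0.05 and Mrpl53 at 0.15 ± 0.04. Of 52 mitochondrial tRNA synthetases and gene expression factors 6 rose and 3 fell (median 0.01); without the array that stood apart 3 rose and 2 fell, and 1 and 0 rose with the 48 h pairs that shared arrays with 6 h and with the carrier. The glutamyl-tRNA synthetase gene Ears2 rose by 0.25 ± 0.05 and the mitochondrial DNA polymerase gene Polg by 0.28 ± 0.06.

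Pdf, which encodes the mitochondrial peptide deformylase that actinonin inhibits, read 11.10, 11.18, 11.10 and 11.17 at 48 h and 11.02, 11.07, 11.02 and 10.90 at 24 h (0.13 ± 0.06; adjusted p = 0.14). Tfam, which packages mitochondrial DNA, was at -0.09 ± 0.06 and the chaperone gene Hspd1 at -0.03 ± 0.07, both with overlapping groups. Of 26 mitochondrial chaperones and proteases, 2 rose and 1 fell. The inner membrane peptidase gene Immp2l fell by 0.29 ± 0.06, and the assembly factor gene Bcs1l rose by 0.20 ± 0.05. Of 26 import genes, Chchd4, which drives oxidative folding in the intermembrane space, rose by 0.30 ± 0.08. Of 30 genes of the TCA cycle and pyruvate entry, 3 fell, namely Pdk2, Pdk4 and Pdp2, which set the phosphorylation of pyruvate dehydrogenase (-0.42 ± 0.09, -0.27 ± 0.05 and -0.37 ± 0.09). A second probe of Pdp2 gave -0.01.

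Among 79 genes of the cytosolic ribosome, 14 rose and 0 fell (median 0.09), with 69 changes above 0. Rps14 rose by 0.30 ± 0.08 and Rps24 by 0.30 ± 0.07. These changes depended on the processing: 4 rose without the array that stood apart, 0 and 2 with the pairs of the 48 h group that shared arrays with 6 h and with the carrier, and 0 without scaling between arrays. Ribosomal protein genes also have many near-identical processed copies.

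Among signalling genes, of 26 inflammatory and NF-kB genes tested, 4 rose and 3 fell. The NF-kB subunit genes Relb (0.39 ± 0.06) and Nfkb2 (0.35 ± 0.06) rose, and Il1rl1 and the chemokine gene Cxcl12 (-0.44 ± 0.09) fell. Of 31 genes of TGF-beta and BMP signalling, 3 rose and 5 fell, with Inhbb and the BMP antagonist gene Nog (0.25 ± 0.05) higher and the co-receptor gene Tgfbr3 (-0.55 ± 0.09) and the TGF-beta-induced matrix gene Tgfbi (-0.48 ± 0.09) lower. Of 26 Wnt genes 6 fell and 1 rose, with Rspo2, an agonist of Wnt signalling, at -0.47 ± 0.07 and Nkd1, an intracellular inhibitor, at 0.41 ± 0.09 (0.20 by a second probe). Of 11 genes of the insulin-like growth factor system 3 fell, Irs1 by 0.44 ± 0.10, Igfbp3 by 0.33 ± 0.10 and Igfbp6 by 0.21 ± 0.07; without the array that stood apart, 1 of the list fell.

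Of 17 clock genes 5 rose and 1 fell (median 0.15). With the 48 h pairs that shared arrays with 6 h and with the carrier, 3 and 1 rose and 0 fell. Without scaling between arrays 0 rose and 0 fell. Nfil3, a repressor of D-box genes, read 13.05, 13.07, 13.10 and 13.14 at 48 h and 12.61, 12.78, 12.72 and 12.63 at 24 h (0.41 ± 0.07). Nr1d2 and Nr1d1, which encode the REV-ERB repressors, rose by 0.35 ± 0.08 and 0.24 ± 0.07, Per2 by 0.26 ± 0.07, and Cry1 fell by 0.24 ± 0.07. The 2 times lie a whole day apart. Of 25 immediate early genes 4 rose, among them Fosl2 (0.25 ± 0.07), and 2 fell, Egr2 (-0.40 ± 0.09) and Fos (-0.34 ± 0.10); without the array that stood apart 2 rose and 1 fell. Of 19 cytosolic heat shock genes 3 rose, among them the small heat shock gene Hspb1 (0.44 ± 0.06), and Hspa1a fell by 0.30 ± 0.09.

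Of 28 interferon-stimulated and antigen presentation genes 5 fell and 1 rose (median -0.12), and 1 fell without the array that stood apart. Of 32 proteasome genes 5 fell and 0 rose (median -0.08), with Psmd3 at -0.23 ± 0.05, and 3 fell without that array. Of 28 endoplasmic reticulum chaperone genes 3 fell and 0 rose, with the calnexin gene Canx at -0.25 ± 0.06. Of 36 ribosome biogenesis genes 3 rose and 1 fell, of 23 pyrimidine and purine synthesis genes 2 rose (1 rose in each without that array), and of 21 amino acid transporters 3 rose and 3 fell. Of 15 genes of the BCL2 family, Pmaip1 rose. The following were not called: the corneodesmosin gene Cdsn was at 0.09 ± 0.10, the carbonic anhydrase gene Car6 at -0.09 ± 0.14 and the peptide hormone gene Cck at 0.03 ± 0.09.

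The change from 24 h to 48 h was set against the change from 48 h to 72 h by a contrast of both steps in the same model. It called 4325 of 24250 (17.8%), 1939 (8%) with the higher value in the first step and 2386 (9.84%) with the higher value in the second. The contrast counts the 48 h samples in both steps and the 24 h and 72 h samples shared arrays, so that slide column and time cannot be told apart here either. Of the 24 genes with the largest rises or falls, 22 were called in it, and Il1rl1 and Prl2c5 were not. The 24 genes were chosen by the size of the first step, which is part of the contrast. A high share of calls among them therefore follows from the choice. Lpl fell by 0.88 ± 0.08 between 24 h and 48 h and rose by 0.94 ± 0.08 between 48 h and 72 h. Tmem171 rose by 1.19 ± 0.15 in the first of these steps and fell by 1.14 ± 0.15 in the second. Dkk2, Sparcl1 and Rgs4 fell in the first step and were at 0.04 ± 0.08, 0.09 ± 0.10 and 0.01 ± 0.12 in the second.

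Some lists turned back in the next step and others did not. Because the 48 h samples enter both steps with opposite signs, a turn cannot be told apart from a shift of the 48 h arrays. The median change of mitotic genes was 0.30 from 24 h to 48 h and -0.31 from 48 h to 72 h, and 36 of 38 were higher in the contrast of both steps. For lysosomal genes the medians were -0.20 and 0.26, and 28 of 44 were lower in the contrast. For collagens they were -0.26 and 0.36 (11 of 17 lower, 1 higher), and for fibroblast markers -0.26 and 0.36 (8 of 15 lower). Cholesterol genes had -0.27 and 0.16 (11 of 25 lower) and contractile genes 0.25 and -0.13 (8 of 16 higher). Glycolytic and hypoxia-inducible genes had medians of 0.17 and 0.06 (6 of 32 higher, 3 lower), G1/S genes -0.07 and -0.09 (4 of 47 higher, 1 lower) and proteasome genes -0.08 and -0.0006 (1 of 32 lower). Levels at 24 h and 72 h, which were measured on the same arrays, thus lay closer together than either did to 48 h in the medians against the carrier of the mitotic, lysosomal, collagen, fibroblast marker and cholesterol lists.

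Each pair of 48 h samples was also set against the 4 samples of 24 h alone. The samples that shared arrays with 6 h gave 1058 calls and those that shared arrays with the carrier 1361, of which 1024 and 1270 were among the 2941. The median of mitotic genes was 0.28 with the 6 h pair and 0.31 with the carrier pair, that of lysosomal genes -0.20 and -0.20, that of collagens -0.27 and -0.28, and that of the stress response 0.15 and 0.21. Fatty acid synthesis had -0.20 and -0.12. Fewer members were called with 2 of the 48 h samples: 22 and 24 of the mitotic genes rose with the 6 h pair and the carrier pair, 11 and 14 of the lysosomal genes fell, and so did 3 and 6 of the collagens, 10 and 12 of the NRF2 targets and 6 and 4 of the cholesterol genes. Of the stress response genes 4 and 5 rose, and of the contractile genes 5 and 6.

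Without scaling between arrays, 333 genes were called in all. Of the lists, 6 mitotic, 3 contractile, 0 stress response and 1 of the glycolytic and hypoxia-inducible genes rose, and 3 collagens, 5 cholesterol genes, 2 fatty acid synthesis genes and 7 NRF2 targets fell. The medians kept their signs, at 0.27 for mitotic genes, 0.25 for contractile genes, -0.28 for collagens and -0.30 for cholesterol genes.

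**Figure D5:**
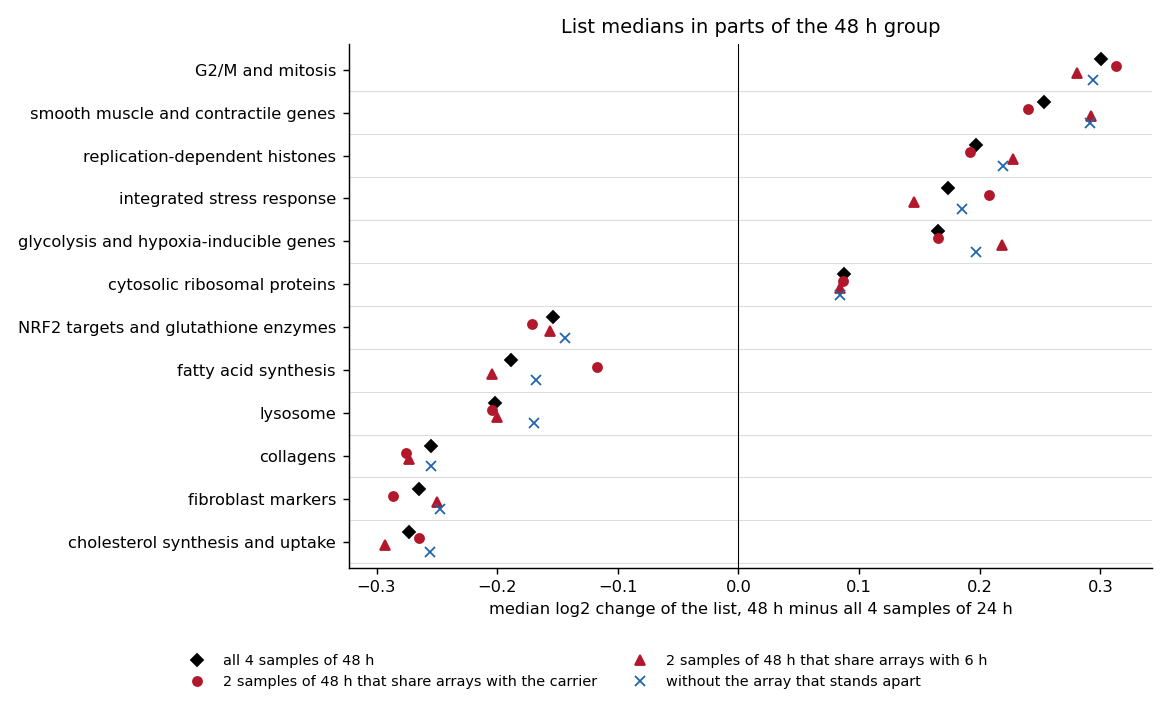
Median log2 change of 12 lists, 48 h minus 24 h (horizontal axis), for all 4 samples of 48 h (black), for the pairs that shared arrays with the carrier (red circles) and with 6 h (red triangles), and without the array that stood apart (blue crosses). Each list lies on one side of 0 in all 4 settings, and fatty acid synthesis spans -0.20 to -0.12.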

How the data were processed

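RNA of 20 samples was measured on 2-colour Agilent arrays of 62976 spots, 3671 of them controls, and each channel was treated as 1 sample. The deposited scanner intensities come from Feature Extraction 10.7.3.1 for slide 1 and 11.0.1.1 for slide 2, with array annotation of the mm9 build, per the file headers. The authors' deposited value table holds log2 values, made with R 2.15 and limma per the submitters' processing notes; it served as an alternative.

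Here the median spot intensities were background-corrected (normexp, offset 50), loess-normalized within arrays with control and outlier spots at weight 0, and scaled between arrays on mean log2 intensity (Aquantile; limma 3.58.1, R 4.3.3). Spots of a probe were averaged, a gene took its brightest probe, and probes flagged well above background in fewer than 4 of 20 samples were left out. Of the tested features 14242 had a symbol, updated through RefSeq's GRCm38.p6 table, and 10008 had none. One model over all samples held group, dye and slide, and samples sharing an array were correlated through a random effect (0.25). Two-sided moderated tests were adjusted by Benjamini-Hochberg over all 24250. Printed levels have the dye and slide terms removed. The steps were tested on simulated data.

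Named genes are the 12 largest rises and falls with a symbol, a call and no overlap, genes above background at one time only, up to 4 called members of each list by smallest adjusted p with up to 2 against its direction, and 23 fixed genes; some of these are not reported here. The comparison and the lists were chosen with earlier results of these data known. Samples with the same replicate label did not deviate together (r from -0.171 to -0.0496), so the main model has no replicate block. Alternatives covered background, normalization, filter, probe choice, samples, terms, dye and left-out samples.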

Additional observations from a re-analysis of the deposited data

Results flagged for a closer look

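Among the named genes, 20 of 510 groups of 4 samples held a value whose gap to the nearest other, relative to the group's range, exceeded Dixon's critical value for 4 samples; chance gives about 1 in 20 groups. In the 48 h sample Cy5 replicate 1, Cd74 read 9.458 and Cxadr 10.54, above the other three, and Mrpl18 read 12.86, below them. In the 48 h sample Cy3 replicate 2, Egln3 at 9.375, Psma7 at 15.38 and Tubb3 at 11.21 lay above the others and Hspd1 at 16.12 below. In the 48 h sample Cy5 replicate 2, on the array that stood apart, Des at 6.951 lay above and Mtrr at 7.527 and Sox10 at 6.677 below. Twist2 at 12 was low in the 48 h sample Cy3 replicate 1.

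In the 24 h group, the sample Cy3 replicate 2 was high in Ibsp at 6.733 and Krt7 at 6.545 and low in Prrx1 at 13.45 and Twist2 at 12.14. Cebpg at 10.74 was high in Cy3 replicate 1. Egln3 at 9.057 was high and Rrp1b at 9.972 low in Cy5 replicate 1, and Fbn1 at 12.96 and Slc36a4 at 8.689 were high in Cy5 replicate 2.

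The change from 24 h to 48 h differed from the change from 48 h to 72 h, by the contrast of both steps in limma, in 22 of the 24 genes with the largest changes, of which 21 are given here. The difference (first step minus second, log2) was positive in Tmem171 at 2.322, Crispld2 at 1.846, Gjb2 at 1.606, Pdgfb at 1.507, Siglecg at 1.412, Inhbb at 1.27, Ppp1r14a at 1.2, Krt19 at 1.104, Tgm2 at 1.034, Edn1 at 1.009 and Cobl at 0.883. It was negative in Try5 at -2.008, Lpl at -1.815, Sfrp2 at -1.639, Ptgfr at -1.493, Nrcam at -1.451, Dlk1 at -1.398, Slc5a7 at -1.018, Sparcl1 at -0.9437, Dkk2 at -0.9105 and Rgs4 at -0.8185. The 48 h samples enter both steps with opposite signs, and the genes were chosen by the size of the first step. A high share of calls among them therefore follows from that choice.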

How the results depend on the processing

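No called named gene changed sign in the 26 settings tried, but calls were lost. Of the 24 genes with the largest rises or falls, 10 were called in all 26 settings. Among the 255 named genes, 128 lost their call without scaling between arrays, 160 within the Cy3 samples and 175 within the Cy5 samples. The count of 2941 called genes ran from 1996 to 4034 over 9 settings: no background correction, either filter, the mean of a gene's probes, the 8 samples or slide 2 alone, no array block, a slide row term, and without the array that stood apart (2271), and was similar in quantile normalization (2787) and in the authors' value table (2785, of which 2619 were among the 2941). The count was 1856 with 75th percentile scaling, 333 without scaling between arrays (332 of them among the 2941, 27.93% higher at 48 h against 47.57%), 1243 with a replicate block, 94 within the Cy3 samples (58.51% higher) and 106 within the Cy5 samples (32.08% higher). It was 1058 with the 48 h samples that shared arrays with 6 h and 1361 with those that shared arrays with the carrier, both chosen after seeing the data. Leaving out 1 sample gave 1781, without the 24 h sample Cy5 replicate 2, to 2370. Fewer samples enter the dye, pair and left-out settings; the cause of the other differences was not tested. The 4 genes changed at least 2-fold were 7 within Cy5.

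Against the next step, the 4325 calls became 612 without scaling, 1262 within Cy3, 433 within Cy5, and 1956 and 2202 with the 6 h and carrier pairs. Against the previous step, the 5324 calls became 1496 without scaling, 2273 within Cy3 and 1406 within Cy5. The median of macrophage markers (-0.0803) was 0.0133 without scaling and 0.111 with 75th percentile scaling, and ran from -0.142 to 0.0271 with 1 sample left out. With 75th percentile scaling matrix proteases were at 0.00806 and cartilage and bone markers at 0.0652. The replicate labels do not pair the samples. Signal over background limits the dim genes, whose folds are lower bounds.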
